A study of Mus musculus with 6 samples.

Results

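The genes described here are 38 imprinted genes outside the insulin-like growth factor axis, a set that leaves out Igf2, H19, Igf2r and Grb10. They were picked by gene symbol from general knowledge of mouse imprinting, and all 38 are listed among the 23353 genes of the deposited table. RNA-seq was measured in day 4 embryoid bodies (EBs), floating aggregates in which mouse embryonic stem cells (mESCs) differentiate in serum without LIF. The wildtype group is the W9.5 mESC line. The EVX1-Δfs group is clone 14 of that line, in which CRISPR-Cas9 left frameshift deletions in exon 2 of Evx1, a homeobox gene of the primitive streak. Each group has 3 libraries, and by the study's account each replicate is a differentiation begun on its own day. EVX1-Δfs is a single clone, so the edit and any trait of the clone cannot be told apart. The RNA was counted per gene without regard to parent of origin, so which parental copy was read in these cells is unknown.

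An imprinted gene is transcribed from the copy inherited from one parent, while the copy from the other parent is silenced. Most imprinted genes lie in clusters, each governed by a differentially methylated control region whose mark is set in the germline and kept through the wave of demethylation after fertilisation by ZFP57, TRIM28 and DNMT1. Within a cluster, maternally and paternally expressed genes are often neighbours, and a long non-coding RNA can silence the protein-coding genes in cis. Many imprinted genes act in the placenta and in growth of the embryo.

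Between 7597879 and 9914471 reads per library were assigned to genes, and 15998 to 16479 genes were detected per library. Values are normalized read counts: reads divided by one size factor per library. Evx1 itself had normalized counts of 2358, 2176 and 2400.0 in wildtype and 2354, 2516 and 2012 in EVX1-Δfs, replicates 1 to 3 in that order, as in all lists of values here. Those ranges overlapped, and a count of frameshifted transcripts does not check the label. The markers fixed for the primitive streak all passed the filter on low values, and 5 of the 7 were called lower in EVX1-Δfs (3 of 7 with the replicate block or without EVX1-Δfs replicate 1). Their summed normalized counts were 14289.6 to 17126 in wildtype and 9918 to 12483 in EVX1-Δfs. In bulk RNA, fewer cells of a type and less RNA per cell cannot be told apart.

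Of the 38 imprinted genes, 32 had 10 or more normalized counts in 3 or more libraries and were tested with limma on log2(normalized count + 1). A positive fold change means a higher level in EVX1-Δfs, and on that scale the change of genes with few reads is understated. Phlda2, Ppp1r9a, Impact, Zdbf2 and Inpp5f rose in EVX1-Δfs, and Asb4 fell, at a Benjamini-Hochberg adjusted p under 0.05 over all 13136 genes tested. That is 5 of 32 higher and 1 of 32 lower, beside 2.08% of all genes tested called higher and 2.95% called lower. With upper-quartile factors the calls over all genes were 370 higher and 325 lower in place of 273 and 387, while the members' calls moved by at most 1. The log2 fold changes ran from -0.60 for Asb4 to 0.75 for Zim1, with 20 positive, 12 negative and a median of 0.12, beside a median of 0.00022 over all genes tested. None of the 32 changed by 2-fold. In 9 members all EVX1-Δfs libraries lay above all wildtype libraries and in 6 all lay below, beside 12.2% and 14.7% of all genes tested. At an unadjusted p under 0.05 were 15 of the 32 members, beside 23.1% of all genes tested (3028 of 13136), and the counts at that level below are to be read beside this share.

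Phlda2 was the one member called in every alternative fit. The replicate number was taken to mark a shared day, which the labels do not state. With that number as a block, Phlda2 alone among the 32 was called. Over all genes, 0.579% were called higher and 1.11% lower in that fit. Fold changes over all genes fell with the GC content of the transcript (Spearman's rho -0.46 across 12978 genes, which share the libraries), and the median GC content was 43.8% in genes called higher against 56.5% in genes called lower. After the trends on GC content and length were removed, 1 member was called higher (Phlda2) and 4 lower (Peg3, Sgce, Asb4 and Slc38a4). Leaving out single libraries moved the count called higher from 5 to 2 without wildtype replicate 3 and to 1 without EVX1-Δfs replicate 1 or 3. It moved the count called lower from 1 to 2 without wildtype replicate 1 or 3, and to 0 without wildtype replicate 2 or EVX1-Δfs replicate 1. The plot of fold changes by cluster shows each estimate with its interval.

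**Figure D1:**
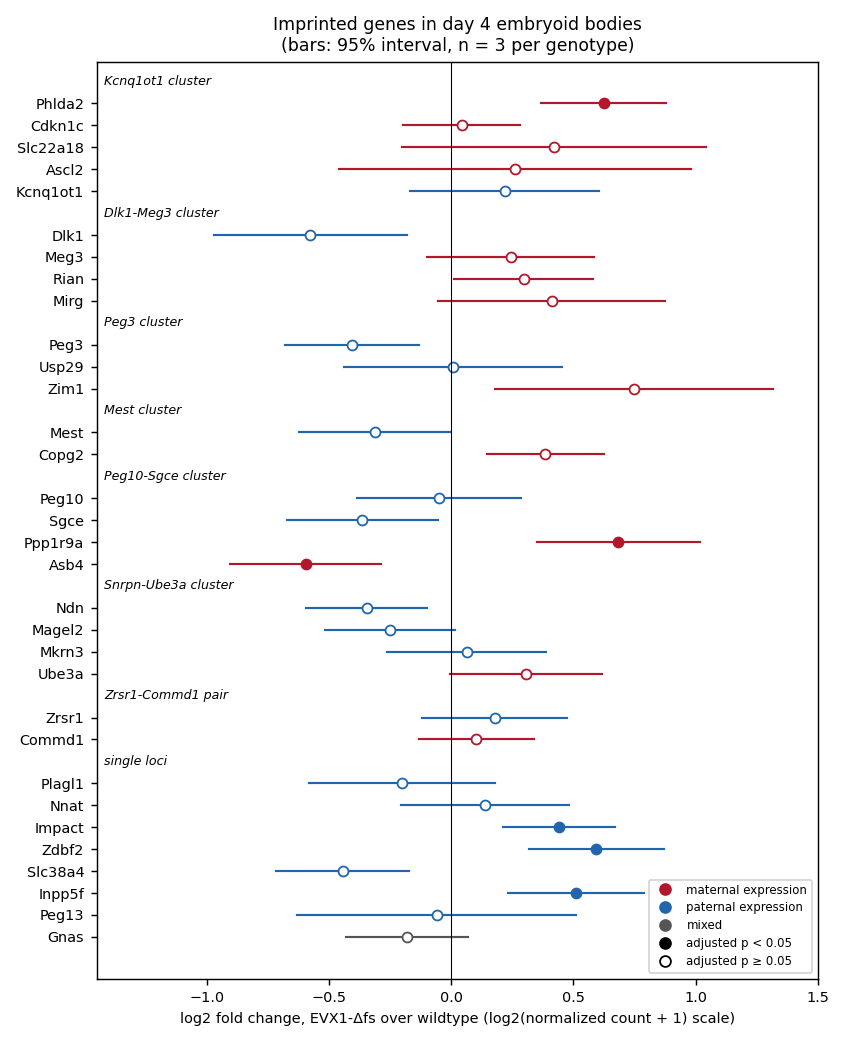
Log2 fold change, EVX1-Δfs over wildtype, of the 32 imprinted genes tested (x axis) in rows by imprinted cluster, with 95% intervals (bars, n = 3 per genotype), coloured by the parental copy that is known to be expressed. Filled points mark the 6 genes called at an adjusted p under 0.05. Zim1 has the highest estimate (0.75) with an interval from 0.18 to 1.32, and Asb4 the lowest (-0.60).

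The sequence before the start of 5 members is shown here, 250 bases each, from RefSeq on GRCm38.p6, a later build than the one the reads were mapped to. Zdbf2 is shown at the start whose window holds the most hexamers among members, Phlda2 as the member called throughout, Ppp1r9a and Asb4 as neighbours called in opposite directions, and Peg3 because its start faces that of Usp29. Windows of 300 bases, from 250 before to 50 after a start, were found for 31 of the 38 members, 46 windows in all. Capitals mark TGCCGC on either strand, the hexamer that ZFP57 is known to bind in its methylated form, and TAATTA, a homeodomain core that is its own reverse complement. The marked stretches do not overlap each other. Each sequence is written 5′ to 3′ in the direction of the gene.
Zdbf2, chr1:63200108-63200357, plus strand: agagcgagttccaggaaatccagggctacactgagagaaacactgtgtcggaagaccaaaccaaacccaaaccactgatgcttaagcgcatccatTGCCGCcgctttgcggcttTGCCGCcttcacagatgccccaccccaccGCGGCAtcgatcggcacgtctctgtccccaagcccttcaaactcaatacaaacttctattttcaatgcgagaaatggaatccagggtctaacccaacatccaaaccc
Phlda2, chr7:143502525-143502774, minus strand: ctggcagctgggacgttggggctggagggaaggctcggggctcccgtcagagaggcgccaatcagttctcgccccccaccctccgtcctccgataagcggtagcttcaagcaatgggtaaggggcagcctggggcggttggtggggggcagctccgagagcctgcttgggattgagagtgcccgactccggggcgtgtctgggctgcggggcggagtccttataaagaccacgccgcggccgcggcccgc
Ppp1r9a, chr6:4903061-4903310, plus strand: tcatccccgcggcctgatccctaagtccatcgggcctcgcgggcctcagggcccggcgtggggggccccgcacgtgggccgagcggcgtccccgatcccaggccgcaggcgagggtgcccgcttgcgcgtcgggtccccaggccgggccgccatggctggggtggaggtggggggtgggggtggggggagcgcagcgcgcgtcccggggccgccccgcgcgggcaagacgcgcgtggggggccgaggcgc
Asb4, chr6:5383136-5383385, plus strand: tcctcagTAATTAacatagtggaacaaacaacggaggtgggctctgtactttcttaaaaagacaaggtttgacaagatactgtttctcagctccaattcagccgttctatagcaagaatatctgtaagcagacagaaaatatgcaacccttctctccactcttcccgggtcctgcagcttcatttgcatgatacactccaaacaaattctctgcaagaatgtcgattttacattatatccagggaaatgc
Peg3, chr7:6730420-6730669, minus strand: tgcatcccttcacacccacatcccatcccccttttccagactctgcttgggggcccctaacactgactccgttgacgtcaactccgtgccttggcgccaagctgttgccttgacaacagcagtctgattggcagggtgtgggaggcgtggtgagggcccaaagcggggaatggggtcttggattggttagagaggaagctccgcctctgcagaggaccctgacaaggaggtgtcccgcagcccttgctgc
The printed sequence of Zdbf2 carries the hexamer 3 times and was chosen for it, so its count is a description. At least 1 hexamer was found in 11 of the 46 windows of members (23.9%, over 10 genes), beside 11.6% of the 32851 windows of all genes. Among the 11 are Mest windows that nearly coincide (starting at 30737800 and 30737803), each with 2 hexamers. A second RefSeq start of Zdbf2, 72911 bases downstream, has none in its window. In the annotation on the build of the reads, Zdbf2 spans 41312 bases, less than that distance, so the gene as annotated there cannot hold both starts, and reads counted for Zdbf2 are not tied to the printed one. Asb4 has the one window of a member with TAATTA, beside 5.29% of all windows. CG dinucleotides number 21 in the printed sequence of Phlda2, 35 in that of Ppp1r9a and 4 in that of Asb4. The printed start of Ppp1r9a was picked for its high CG number and that of Asb4 for TAATTA, and each gene has another RefSeq start. In windows of 300 bases, Ppp1r9a had 48 CG at the printed start and 10 at the other. Asb4 had 6 and 8 in that order, with no TAATTA at the other start. Over 300 bases, the windows of members held a median of 14 CG, and all windows a median of 7. The hexamer itself holds a CG, and the part of CG number in the hexamer count was not tested. The Peg3 window shares 263 bases with that of Usp29, which is read from the other strand, with starts 164 bases apart. These letters are descriptions of the genome, and neither binding nor methylation was measured.

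The members spanned almost the whole range of expression in these EBs. Per kilobase of annotated exon, the retrotransposon-derived Peg10 stood highest, at 3407 ± 856 in wildtype and 3227 ± 262 in EVX1-Δfs normalized reads (SD, n = 3 each), above 99.1% of the genes tested. Phlda2 followed with 1959 ± 328 in wildtype and 2999 ± 269 in EVX1-Δfs, and the alpha/beta hydrolase-like Mest with 1477 ± 417 in wildtype and 1166 ± 145 in EVX1-Δfs. In EVX1-Δfs the libraries of Peg10 and Phlda2 overlapped on this scale, and in wildtype they did not. Gnas, the stimulatory G protein alpha subunit, and the zinc finger gene Peg3 lay above 96.8% and 95.6% of genes. At the low end were the trophoblast factor Ascl2 (10.1 ± 1.34 in wildtype and 12.4 ± 3.44 in EVX1-Δfs) and the membrane transporter Slc22a18 (11.7 ± 1.03 in wildtype and 15.8 ± 1.38 in EVX1-Δfs), above 15.2% and 18.0% of genes, and their libraries overlapped within each genotype. By mean level the zinc finger gene Plagl1 (14.0 ± 0.559 in wildtype and 12.2 ± 1.73 in EVX1-Δfs) lay between them, above 17.4% of genes. Kcnq1ot1 and Peg13 had no length in the annotation used and are not placed on this scale.

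**Figure D2:**
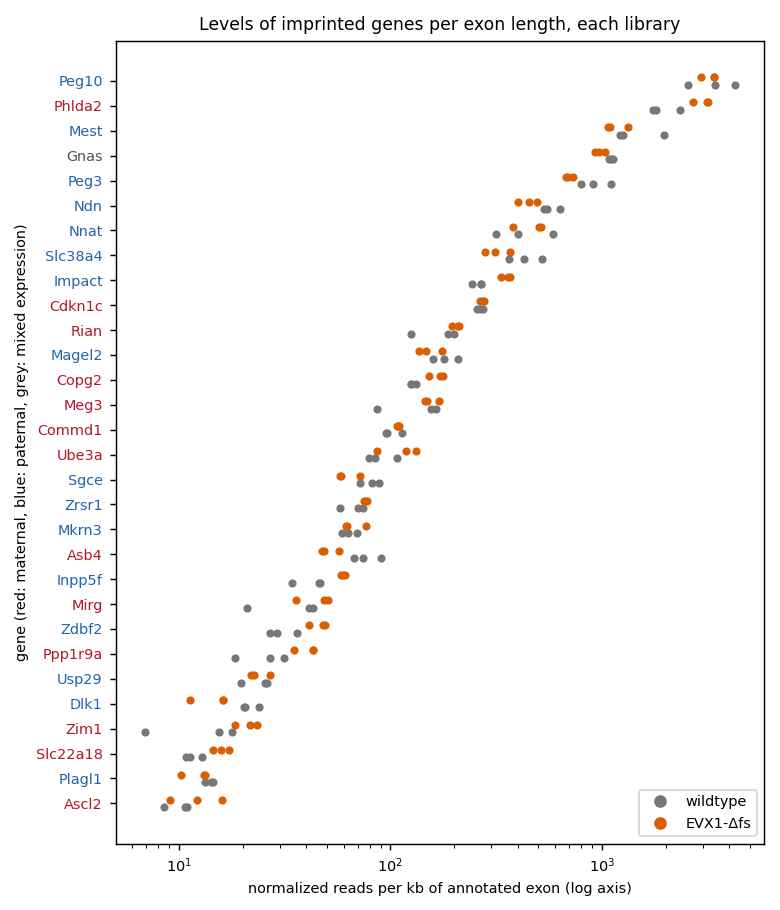
Normalized reads per kilobase of annotated exon (x axis, log scale) for the 30 tested members with a known length, ordered by mean level, with 1 point per library, grey for wildtype and orange for EVX1-Δfs. Single libraries run from 6.92 per kilobase for Zim1 in wildtype replicate 3 to 4252 for Peg10 in wildtype replicate 2.

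In the Kcnq1ot1 cluster on distal chromosome 7, maternally expressed genes surround a paternally expressed long non-coding RNA. Phlda2 (chr7:150687450-150688446, minus strand, NCBIM37), a pleckstrin homology protein that restrains growth of the placenta, rose by 54.0% in the fit. Its normalized counts were 1359, 1769 and 1320.2 in wildtype and 2406, 2369 and 2036 in EVX1-Δfs. All EVX1-Δfs libraries lay above all wildtype libraries, and the mean went from 1483 ± 249 to 2271 ± 204 (SD, n = 3 each). The log2 fold change was 0.62 ± 0.12 (SE, 95% interval 0.37 to 0.88), at a limma adjusted p of 0.00579. The replicate block moved that p to 0.0204. Over 19 alternatives its adjusted p lay between 5.42e-05 and 0.0402.

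Its neighbours did not pass the test. Cdkn1c, the cyclin-dependent kinase inhibitor p57, had 494, 530.1 and 512 in wildtype and 531, 513 and 536 in EVX1-Δfs, and the ranges overlapped (log2 fold change 0.042, SE 0.12, limma adjusted p = 0.864). The 95% interval of that fold change, -0.20 to 0.28, does not reach the estimate for Phlda2. Slc22a18, which lies between Cdkn1c and Phlda2, had 22.0, 18.6 and 19.5 in wildtype and 27.1, 24.8 and 29.5 in EVX1-Δfs, without overlap (log2 fold change 0.42, SE 0.30, limma adjusted p = 0.415). Ascl2 had 17.2, 17.7 and 13.7 in wildtype and 19.6, 14.7 and 25.7 in EVX1-Δfs, with overlap (log2 fold change 0.26, SE 0.35, limma adjusted p = 0.698). The potassium channel gene Kcnq1 stayed below the filter in all libraries and was not tested. It had normalized counts of 0.957, 1.77 and 0 in wildtype and 4.67, 3.38 and 3.81 in EVX1-Δfs, from at most 5 reads a library, and the groups did not overlap. Kcnq1ot1, the cis-acting non-coding RNA, had 167, 150.4 and 96.2 in wildtype and 163, 145 and 161 in EVX1-Δfs, and its ranges overlapped (log2 fold change 0.22, SE 0.19, limma adjusted p = 0.509). Wildtype replicate 3 was the low one there, and without it the log2 fold change was -0.021. Of the trophoblast markers, 4 of 8 passed the filter. Elf5, Tpbpa, Gcm1 and Prl3d1 did not, and Prl3d1 was at 0 in all libraries. The list's summed counts were 956 to 1165 in wildtype and 787 to 823 in EVX1-Δfs. Of these, Cdx2, the one marker called lower, made 424, 604 and 574 in wildtype and 299, 385 and 295 in EVX1-Δfs. The paper counts Cdx2 among genes of posterior mesoderm patterning, so these sums do not single out trophoblast. The part of the trophoblast markers in the values of Phlda2 and Ascl2, both known from the trophoblast, was not tested.

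The Peg10-Sgce cluster on proximal chromosome 6 held called genes of opposite direction. Ppp1r9a (chr6:4853004-5115661, plus strand), which encodes the actin-binding protein neurabin, had 365, 312 and 214 in wildtype and 499, 407 and 500.3 in EVX1-Δfs. Every EVX1-Δfs library was above every wildtype library, and the fitted rise was 60.5%, from means of 297 ± 76.8 to 469 ± 53.3 (SD, n = 3 each), with a log2 fold change of 0.68 ± 0.16 (SE) at a limma adjusted p of 0.0176. The replicate block gave it an adjusted p of 0.0560, and the fit without GC and length trends one of 0.0762. It also missed the threshold when wildtype replicate 3 (0.0702) was left out, or EVX1-Δfs replicate 1 (0.0769) or 3 (0.0687). Wildtype replicate 3 was its lowest library, and without that library the log2 fold change was 0.46.

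Asb4 (chr6:5333386-5383022, plus strand), an ankyrin repeat and SOCS box protein known from the vasculature of the placenta, lies further along the same cluster and was the one member called lower. Its normalized counts were 265, 357 and 293 in wildtype and 190.5, 186 and 225 in EVX1-Δfs, with no overlap. Its mean went from 305 ± 46.9 to 200.5 ± 21.2 (SD, n = 3 each), with a log2 fold change of -0.60 ± 0.15 (SE) at a limma adjusted p of 0.0240. Blocking on the replicate moved this p to 0.0589, and removing GC and length trends moved it to 0.00281. The adjusted p was 0.0930 when wildtype replicate 2 was left out, and 0.0850 and 0.0643 when EVX1-Δfs replicate 1 or 2 was. Like Ppp1r9a, Asb4 is known as maternally expressed, and the members differed in sign in all 19 alternatives. Asb4 is known from endothelial cells. Of the haematoendothelial markers 4 of 8 were called lower, beside 2.95% of all genes tested. Gata1 and Pecam1 had positive log2 fold changes (0.67 and 0.16), and 6 of the 8 had negative ones. The list's summed counts were 3291 to 4310.4 in wildtype and 1894 to 2201 in EVX1-Δfs. Of these, Kdr made 1877, 2415 and 1669 in wildtype and 976, 1118 and 1052 in EVX1-Δfs. The part of these markers in the value of Asb4 was not tested.

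The paternally expressed genes of that cluster did not pass the test. Peg10 (chr6:4697306-4710514), which the placenta needs, had 22838, 28323 and 16921 in wildtype and 19478, 22484 and 22528 in EVX1-Δfs, and the EVX1-Δfs libraries lay within the wildtype range (log2 fold change -0.05, SE 0.16, limma adjusted p = 0.884). Sgce, the epsilon-sarcoglycan gene that is transcribed away from Peg10 on the other strand, had 221, 273 and 253 in wildtype and 178, 180.4 and 222 in EVX1-Δfs. Its ranges overlapped at the top of EVX1-Δfs and the bottom of wildtype (log2 fold change -0.36, SE 0.15, limma adjusted p = 0.146). With GC and length trends removed the log2 fold change of Sgce was -0.52 with an adjusted p of 0.0475.

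The other called members were paternally expressed genes at loci of their own. Zdbf2 (chr1:63319839-63361150, plus strand), a zinc finger gene of the hypothalamus and of growth, had 342, 457 and 368 in wildtype and 608, 523 and 621 in EVX1-Δfs. The groups did not overlap, and the mean went from 389 ± 60.3 to 584 ± 53.1 (SD, n = 3 each), with a log2 fold change of 0.59 ± 0.13 (SE) at a limma adjusted p of 0.0142. Impact (chr18:13130761-13151457, plus strand), a regulator of translation through the kinase GCN2, had 917, 922 and 836 in wildtype and 1139, 1230.4 and 1265 in EVX1-Δfs. Again no libraries overlapped, with means of 892 ± 48.5 against 1212 ± 65.3 (SD, n = 3 each) and a log2 fold change of 0.44 ± 0.11 (SE) at a limma adjusted p of 0.0244. Inpp5f (chr7:135754842-135839939, plus strand), an inositol phosphatase gene of which a shorter variant is the imprinted one, had 383, 386 and 286 in wildtype and 508, 495 and 486 in EVX1-Δfs. It rose from 352 ± 56.6 to 496 ± 11.02 (SD, n = 3 each), without overlap, with a log2 fold change of 0.51 ± 0.13 (SE) at a limma adjusted p of 0.0315. The counts per gene do not separate its variants.

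Each of these calls was near the threshold. With the replicate block the adjusted p was 0.0555 for Zdbf2, 0.0589 for Impact and 0.0597 for Inpp5f, and with GC and length trends removed it was 0.151, 0.248 and 0.127, with log2 fold changes of 0.33, 0.23 and 0.36. The GC contents of their exons, 42.3%, 41.4% and 45.5%, lie below the median of 50.3% over the genes tested, whereas that of Phlda2 is 56.5%. Zdbf2 missed the threshold when wildtype replicate 1 (0.0563) was left out, or EVX1-Δfs replicate 1 (0.0611) or 3 (0.0665). Impact missed it without wildtype replicate 3 (0.0533) or EVX1-Δfs replicate 1, 2 or 3 (0.0519, 0.0529 and 0.112). For Inpp5f the same libraries mattered, with adjusted p-values of 0.109 without wildtype replicate 3 and 0.101, 0.0631 and 0.0857 without EVX1-Δfs replicates 1, 2 and 3.

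**Figure D3:**
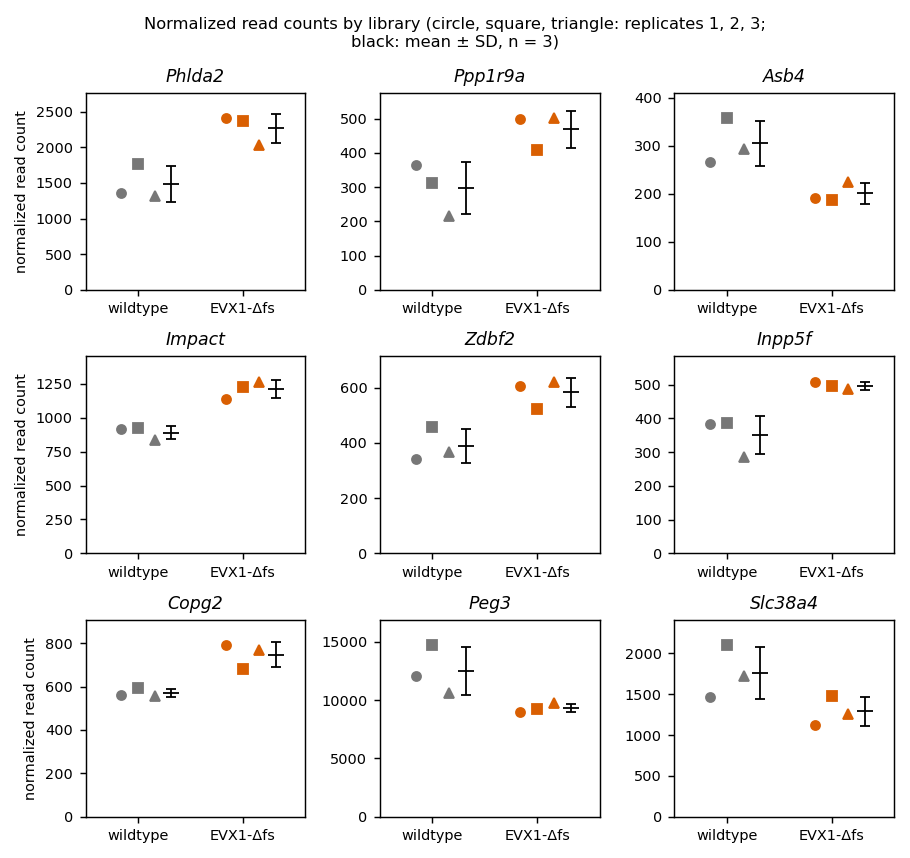
Normalized read counts (y axis, from 0) by genotype for the 6 called members and for Copg2, Peg3 and Slc38a4, which were called in some alternatives only. Circles, squares and triangles are replicates 1, 2 and 3, and black marks are the mean ± SD (n = 3). The groups do not overlap in 8 of the 9 panels, the exception being Slc38a4, where EVX1-Δfs replicate 2 (1481) lies above wildtype replicate 1 (1465).

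In the Dlk1-Meg3 cluster on chromosome 12, no member passed the test with limma, DESeq2 or edgeR, and 2 of 4 had an unadjusted p under 0.05, beside 23.1% of all genes. Dlk1 (chr12:110691033-110701546), the paternally expressed delta-like membrane protein, had 115, 135 and 116 in wildtype and 91.5, 91.3 and 63.8 in EVX1-Δfs. Its groups did not overlap, with means of 122 ± 11.7 against 82.2 ± 15.9 (SD, n = 3 each), and a log2 fold change of -0.58 ± 0.19 (SE) at a limma adjusted p of 0.0743. It was not called in any of 19 alternatives. The maternally expressed non-coding RNAs had positive estimates that did not pass the test. Meg3 had 2966, 2804 and 1566 in wildtype and 2626, 3059 and 2688 in EVX1-Δfs. Rian, the host of small nucleolar RNAs, had 1535, 1632 and 1029 in wildtype and 1609.6, 1707 and 1737 in EVX1-Δfs. Mirg, the host of microRNAs, had 137, 131 and 66.4 in wildtype and 154, 161 and 113 in EVX1-Δfs. Wildtype replicate 3 was the lowest library for all 3 of these RNAs, and the other libraries of the groups overlapped in each. The log2 fold changes were 0.24 for Meg3, 0.30 for Rian and 0.41 for Mirg, with limma adjusted p-values of 0.391, 0.197 and 0.280. Without wildtype replicate 3 they were -0.051, 0.089 and 0.077. The annotation places exons of small RNAs inside these hosts, so the split of reads between them is uncertain.

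In the Peg3 cluster, no member was called by limma, and 2 of 3 had an unadjusted p under 0.05, beside 23.1% of all genes. Peg3 (chr7:6656603-6683132, minus strand), a highly expressed zinc finger gene of the paternal copy, had 12061, 14694 and 10635 in wildtype and 9004, 9221 and 9740.4 in EVX1-Δfs. All EVX1-Δfs libraries lay below all wildtype libraries, and the means were 12463 ± 2059 against 9322 ± 378 (SD, n = 3 each), with a log2 fold change of -0.41 ± 0.13 (SE) at a limma adjusted p of 0.0697. The estimate was negative in all alternatives. It was called in 6 of 19 alternatives, among them DESeq2 (0.0155), limma with GC and length trends removed (0.00724) and limma without wildtype replicate 3 (0.0115). edgeR (0.0618) and the replicate block (0.122) did not call it. Usp29, a ubiquitin protease gene, has a RefSeq start beside that of Peg3 on the other strand. On the build of the reads Usp29 is annotated at chr7:6913871-6916480, away from Peg3, so its counts are not tied to that start. Usp29 had 67.0, 68.1 and 51.5 in wildtype and 58.8, 57.5 and 70.5 in EVX1-Δfs, and those ranges overlapped (log2 fold change 0.0068, SE 0.21, limma adjusted p = 0.990). The maternally expressed zinc finger gene Zim1 had 56.4, 64.6 and 25.2 in wildtype and 67.2, 78.9 and 84.8 in EVX1-Δfs. The groups of Zim1 did not overlap, yet wildtype replicate 3 was far below the other wildtype libraries (log2 fold change 0.75, SE 0.27, limma adjusted p = 0.107), and the fold change without it was 0.34. Without wildtype replicate 2 Zim1 was called, with an adjusted p of 0.0399.

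Mest and Copg2 overlap tail to tail on chromosome 6, where their annotated exons share 904 bases on opposite strands. Mest had 4774, 7706 and 4967 in wildtype and 4315, 4210.0 and 5250.4 in EVX1-Δfs, with wildtype replicate 2 far above the rest (log2 fold change -0.31, SE 0.15, limma adjusted p = 0.211). Copg2, a coatomer subunit gene, had 561, 594 and 558 in wildtype and 789.9, 681 and 769.9 in EVX1-Δfs. Here every EVX1-Δfs library lay above every wildtype library, with means of 571 ± 20.1 against 747 ± 57.9 (SD, n = 3 each) and a log2 fold change of 0.39 ± 0.12 (SE) at a limma adjusted p of 0.0541. DESeq2 and edgeR called Copg2 (0.0277 and 0.0441), as did limma without EVX1-Δfs replicate 2 (0.0445), and it was called in 6 of 19 alternatives. The counting is stated only as standard settings, which in HTSeq use strand. Whether reads were exchanged between these genes was not tested. Without wildtype replicate 2 the log2 fold change of Mest was -0.092.

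The Snrpn-Ube3a cluster on chromosome 7, the counterpart of the Prader-Willi and Angelman region, had 4 tested members and none called by limma, DESeq2 or edgeR, with 1 at an unadjusted p under 0.05 (23.1% of all genes). Ndn, the MAGE family gene necdin, had 908, 876 and 1045 in wildtype and 747, 662 and 819 in EVX1-Δfs, without overlap (log2 fold change -0.35, SE 0.12, limma adjusted p = 0.0881). The other MAGE gene, Magel2, had a log2 fold change of -0.25, the makorin gene Mkrn3 one of 0.063 and the maternally expressed ubiquitin ligase Ube3a one of 0.30, with limma adjusted p-values of 0.241, 0.847 and 0.226. Snrpn, which encodes the spliceosomal protein SmN, was nearly absent from the table with at most 2 reads a library. Snurf, which shares its transcript, is listed at 0 in all 6 libraries, and how reads of the shared transcript were assigned is not given in the sources used here, so no level of Snrpn is drawn from its count.

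Among the remaining loci, Slc38a4, an amino acid transporter gene of the placenta and liver, came closest to a call. It had 1465, 2098 and 1723 in wildtype and 1124, 1481 and 1262 in EVX1-Δfs, and the groups overlapped by a pair of libraries (log2 fold change -0.44, SE 0.13, limma adjusted p = 0.0515). It was called in 9 of 19 alternatives, with DESeq2 (0.0322) and without wildtype replicate 1 (0.0255) and without EVX1-Δfs replicate 2 (0.0421). Gnas had 12410.1, 12677 and 12097 in wildtype and 11560.4, 10851 and 10379 in EVX1-Δfs, a small difference without overlap (log2 fold change -0.18, SE 0.12, limma adjusted p = 0.378), and its counts pool transcripts that are maternal, paternal and biallelic. Plagl1, a zinc finger gene of growth control, had 105, 97.3 and 103 in wildtype and 97.1, 74.4 and 95.3 in EVX1-Δfs, also without overlap (log2 fold change -0.20, SE 0.18, limma adjusted p = 0.538). Zrsr1, a splicing factor gene that lies within Commd1, had 232, 243 and 190.1 in wildtype and 246, 248 and 254 in EVX1-Δfs, again without overlap (log2 fold change 0.18, SE 0.14, limma adjusted p = 0.483). Commd1, neuronatin (Nnat) and Peg13 had log2 fold changes of 0.10, 0.14 and -0.06 with limma adjusted p-values of 0.629, 0.660 and 0.922. Besides Kcnq1 and Snrpn, the members below the filter were Nap1l5, Airn, Rasgrf1 and Dcn, whose highest normalized counts were 9.34, 4.42, 2.26 and 1.91.

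Grouped by the parental copy known to be expressed, 12 of 13 maternally expressed members had a positive log2 fold change, the exception being Asb4, with a median of 0.30. Of 18 paternally expressed members 8 were positive, with a median of -0.055, and over all genes tested 50.1% were positive. Called genes were 2 higher and 1 lower among the maternal members and 3 higher among the paternal ones. Over all genes tested, 2.08% were called higher and 2.95% lower. The groups of libraries were apart in 5 maternal members above and 1 below, and in 4 paternal members above and 4 below. Over all genes tested those shares were 12.2% above and 14.7% below. Without wildtype replicate 3 the medians were 0.18 for 11 of 13 positive maternal members and -0.16 for 6 of 18 positive paternal members. With GC and length trends removed, 10 of 13 maternal and 5 of 16 paternal members were positive, with medians of 0.27 and -0.13, beside 46.1% and -0.023 over all genes. With both replicate 3 libraries left out the counts were 10 of 13 and 5 of 18, with medians of 0.20 and -0.23. The parental copy is a label from general knowledge, and which copy was read in these cells is unknown. Outside the members, the maternally expressed H19 and Grb10 moved in opposite directions, with log2 fold changes of -1.16 and 1.81. Neighbours in a cluster, such as Meg3, Rian and Mirg, count here as separate members. These counts describe the list, and the difference between the groups of genes was not tested.

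One library, wildtype replicate 3, was the most extreme over all genes tested, lowest of the 6 in 24.0% and highest in 25.3%. Among the 32 tested members it was the lowest in 16 and the highest in 3. EVX1-Δfs replicate 3 was the highest library in 12 of the 32, beside 16.6% of all genes. The wildtype SDs on the log2 scale were 0.72 for Zim1, 0.58 for Mirg and 0.51 for Meg3, against a median of 0.17 over all genes. At the other end, Cdkn1c and Gnas had wildtype SDs of 0.051 and 0.034. The map of the members by library shows the low values of wildtype replicate 3 in the Dlk1-Meg3 block and in Zim1.

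**Figure D4:**
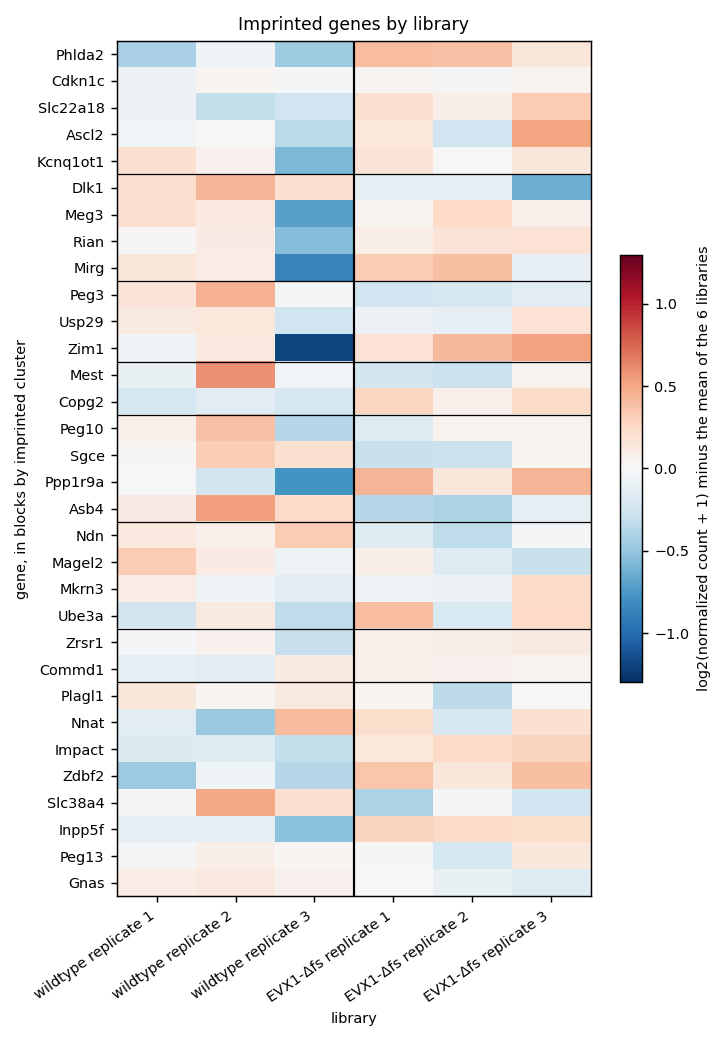
Deviation of log2(normalized count + 1) from the mean of the 6 libraries (colour, from -1.3 in blue to 1.3 in red) for the 32 tested members (rows, in blocks by cluster) in each library (columns). Wildtype replicate 3 is the lowest library in 16 rows, and EVX1-Δfs replicate 3 the highest in 12.

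Genes that set or keep imprints, with the methylation erasers Tet1, Tet2 and Tet3, were counted as a separate list of 24. Of these, 23 passed the filter. Tet1, which oxidises methylated cytosine, rose, and no other was called by limma (7 of 23 at an unadjusted p under 0.05, beside 23.1% of all genes). Tet1 had 269.8, 272 and 271 in wildtype and 397, 449 and 381 in EVX1-Δfs, without overlap, and a log2 fold change of 0.59 ± 0.13 (SE) at a limma adjusted p of 0.0122. Blocking on the replicate gave Tet1 an adjusted p of 0.0388, and removing GC and length trends one of 0.144. The median log2 fold change of the list was 0.063. DESeq2 called 2 of the list higher and 1 lower, and edgeR called 1 higher. The genes that guard imprints in the early embryo had log2 fold changes of 0.063 (Zfp57), -0.11 (Trim28) and -0.19 (Dnmt1), with limma adjusted p-values of 0.804, 0.650 and 0.288. The de novo methyltransferase gene Dnmt3b had a log2 fold change of 0.41 at a limma adjusted p of 0.0828. Without wildtype replicate 2, wildtype replicate 3 and EVX1-Δfs replicate 2, the calls on the list were 3 higher, 2 higher, and 1 higher with 1 lower.

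The cell type markers moved between the genotypes beside these genes. In EVX1-Δfs, limma called lower 4 of 6 tested paraxial mesoderm markers, 1 of 6 lateral and cardiac mesoderm markers and 4 of 8 fibroblast and mesenchyme markers. It called higher 3 of 4 tested markers of visceral and definitive endoderm and 1 of 8 of pluripotency and epiblast, while DESeq2 and edgeR each called 5 of those 8 higher. Among trophoblast markers 1 of 4, Cdx2, was lower. None of 4 neurectoderm or 5 germ cell markers was called by limma, DESeq2 or edgeR, with 2 and 1 at an unadjusted p under 0.05, beside 23.1% of all genes. With the replicate block, 2 paraxial, 1 endoderm and 0 pluripotency markers were called. Single libraries moved these counts too: 2 paraxial markers were called without replicate 3 of either genotype, 2 lateral and cardiac markers without EVX1-Δfs replicate 2, and 1 endoderm marker without EVX1-Δfs replicate 1 or 2. The pluripotency count was 0 when EVX1-Δfs replicate 1 was left out, and also for wildtype replicate 1 or 2. It was 2 when EVX1-Δfs replicate 2 was left out and 3 for wildtype replicate 3, where 1 neurectoderm marker was called as well. The summed endoderm markers were 123 to 183 in wildtype and 475 to 649.6 in EVX1-Δfs, the paraxial mesoderm markers 642 to 734 in wildtype and 356 to 467 in EVX1-Δfs, and the fibroblast and mesenchyme markers 11689 to 14037 in wildtype and 7606 to 9024 in EVX1-Δfs, without overlap in each case. Single genes carried some of these sums: Cer1 had 24.9, 26.5 and 50.4 in wildtype and 431, 406 and 294 in EVX1-Δfs, while Afp, Apoa1 and Ttr stayed under 4 in every library, and Vim had 10578, 12008 and 10216 in wildtype and 6435, 6525 and 7804 in EVX1-Δfs. The part of these shifts in the values of the imprinted genes was not tested. Dcn, a member that mesenchymal cells are known to express strongly, had at most 2 reads in any library.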

How the data were processed

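RNA-seq was measured in day 4 EBs of wildtype W9.5 mESCs and of EVX1-Δfs clone 14, with 3 libraries each. The sample labels gave each library its group and replicate number. By the study's account, mRNA was selected and sequenced on an Ion Proton, TopHat2 and then TMAP placed the reads on mm9, and HTSeq counted them at standard settings. Versions and the gene annotation are not given in the sources used here. The table the authors deposited holds a normalized signal, the reads of each gene over one size factor per library. Whole reads were recovered from it as multiples of the smallest value of each library, and 100% of values came out within 0.001 of a whole read. They number 7597879 to 9914471 per library, so a floor of 3 reads is 2.65 to 3.44 normalized counts. Intervals on the fits are for the difference between the genotypes, given the spread between libraries.

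The main test was limma 3.58.1 with an intensity trend on log2(normalized count + 1), two-sided, over the 13136 genes with 10 or more normalized counts in 3 or more libraries, with Benjamini-Hochberg adjusted p-values called under 0.05. DESeq2 1.42.0 (801 genes called of 11623 with an adjusted p) and edgeR 4.0.16 (687 called) on the recovered reads were alternatives, in R 4.3.3. Others were pseudocounts of 4 and 16, no filter, a mean of at least 50, TMM and upper-quartile factors, a replicate block, removal of GC and length trends (natural splines with 5 degrees of freedom per library), and each library left out. The fits were run on simulated counts with the same dispersion for every gene and no GC trend or replicate effect. That checks the code and not the calls made here. Leaving out both replicate 3 libraries, and running the other lists and Tet1, H19 and Grb10 through more tools, were chosen after seeing the data.

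Per the study's design, each replicate was a separate differentiation set up on its own day, with both genotypes side by side, so the number was taken to pair the libraries. Libraries of one number deviated from their group means with a correlation of 0.111 (replicate 1), 0.00933 (replicate 2) and -0.101 (replicate 3), over 13136 genes that are not independent. Whether the replicates also began from separate stem cell cultures is not stated. The p-values weigh the difference between the genotypes against the spread between these libraries.

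The imprinted genes, their clusters and parental copies, the list of imprint regulators, the list of other imprinted genes, the cell type markers and the tests were chosen with earlier results of these data known. Named in full were called members, Dlk1, Meg3, Peg3, Mest, Cdkn1c, cluster neighbours of called members and members whose groups did not overlap. Exon length, GC content and gene coordinates are from GENCODE vM1 on NCBIM37, the assembly of mm9, where 21981 (94.1%) of the listed symbols matched, 774 through an older symbol. Upstream sequences are from RefSeq on GRCm38.p6.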

Additional observations from a re-analysis of the deposited data

How the results depend on the processing

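Over 19 alternatives Phlda2 was called in all, Asb4 in 15, Ppp1r9a and Zdbf2 in 12, and Impact and Inpp5f in 11. Among members called lower (1 in the reported fit), the count was 2 with pseudocounts of 4 or 16 or a mean of at least 50, and 3 with DESeq2 or with edgeR on all genes with any read. With the replicate block 1 was called higher and 0 lower (76 and 146 over all genes). With GC and length trends removed the members were 1 and 4 (99 and 181 over all genes), and with that and the replicate block 1 and 3 (70 and 131). With both replicate 3 libraries left out, an alternative chosen after seeing the data that tests fewer samples, they were 1 and 3 (99 and 217). edgeR on all genes with any read called 530 and 625. Leaving out 1 library gave 1 to 6 members higher and 0 to 2 lower, 80 to 340 and 140 to 362 over all genes, 1 to 3 of the other imprinted genes and 1 to 3 of the regulators higher, and 0 to 1 regulators lower. DESeq2 called 2 other imprinted genes higher, 2 regulators higher and 1 lower, and edgeR 2 other imprinted genes higher. Small fold changes reversed. Usp29 was -0.00225 with DESeq2, -0.000321 with edgeR on all genes with any read, and -0.104 with GC and length trends removed, where Rian was -0.00988, Zrsr1 -0.00732 and Commd1 -0.0574, in both fits without those trends. With both replicate 3 libraries left out, Ascl2 was -0.0391, Kcnq1ot1 -0.0415, Meg3 -0.0251, Usp29 -0.212 and Mkrn3 -0.0959. With 1 library left out, log2 fold changes ran from -0.246 to 0.126 for Peg10, -0.0686 to 0.38 for Nnat, -0.0207 to 0.376 for Kcnq1ot1, -0.0505 to 0.41 for Meg3, -0.121 to 0.0769 for Usp29, -0.148 to 0.038 for Peg13 and -0.0404 to 0.129 for Mkrn3. The cause was not tested in any of these. The replicate block ended the calls of Ppp1r9a, Asb4, Impact, Zdbf2 and Inpp5f and changed no other member's call. With 22 to 35 reads a library for Peg13 and 12 to 31 for Ascl2 and Slc22a18, and at most 10 for the members below the filter, depth limits what can be said of these genes.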

Other observations

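Of 42 other imprinted genes, a list that holds the IGF axis, 41 were listed and 28 passed the filter. Among these 1 was called higher and 1 lower with limma, beside 2.08% and 2.95% of all genes tested. The median log2 fold change was 0.084. The gene called higher was Grb10, an adaptor that restrains insulin signalling, with 279, 252 and 212 in wildtype and 883, 927 and 791 in EVX1-Δfs (log2 fold change 1.81, SE 0.13, limma adjusted p = 1.09e-08). H19, a maternally expressed non-coding RNA, was the gene called lower, with 14449.8, 24211 and 12219.8 in wildtype and 5282, 7674 and 9529 in EVX1-Δfs (log2 fold change -1.16, SE 0.20, limma adjusted p = 0.00199). The groups of libraries did not overlap in Grb10 or in H19, and both genes were called in all 19 alternatives, among them without wildtype replicate 2, where the log2 fold change of H19 was -0.87. Without wildtype replicate 2 or EVX1-Δfs replicate 1, the calls on the list were 3 and 2 higher. Both are known as maternally expressed in most tissues of the embryo.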
